A study of Mus musculus with 47 samples.

Results

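The comparison is between adrenalectomized RE-RE mice sampled at ZT12, the time of lights off, and at ZT0, the time of lights on. RE-RE mice carry Bmal1(stopFL/stopFL) alleles, in which the clock gene Bmal1 (listed as Arntl) is blocked until Cre recombinase opens it. Syt10-Cre(-/tg), driven by a promoter active in the brain, and Hsa-Cre(-/tg), driven by the human skeletal actin promoter, open it in brain and skeletal muscle, so the other tissues of these mice stay without the gene. The 8 libraries, chosen by their labels, are 4 at ZT0 (replicates 1 to 4, aged 11, 15, 14 and 8 weeks) and 4 at ZT12 (replicates 5 to 8, aged 12, 18, 18 and 16 weeks), out of 47 in the study. All the mice were C57BL/6 females fed ad libitum, with 1 library made per mouse from the whole tibialis anterior, a shin muscle built mainly of fast fibres. Both adrenals had been removed in separate operations, saline with glucose was given to make up for lost aldosterone, and muscle was taken after recovery. The comparison asks which muscle genes still differ by time of day when Bmal1 works in brain and muscle and adrenal hormones are gone. It is set beside sham-operated RE-RE mice (4 and 4 libraries, 9 to 14 weeks) and adrenalectomized wild-type (WT) mice (3 at ZT0 and 4 at ZT12, 12 to 17 weeks), with sham-operated WT mice (4 and 4, 9 to 12 weeks) as the intact reference. The remaining 16 libraries, from adrenalectomized WT mice treated with adrenaline or with dexamethasone (4 per treatment and time, 11 to 14 weeks), enter the model only through the pooled spread.

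In the circadian clock, BMAL1 with CLOCK or NPAS2 binds E-box sequences and switches on the Period and Cryptochrome genes, whose proteins feed back to stop BMAL1 and CLOCK. REV-ERB proteins repress, and ROR proteins activate, transcription of Bmal1 itself, and the factors DBP, TEF and HLF act through D-box sequences on output genes. In muscle, glucocorticoids from the adrenal cortex, which peak near the onset of activity in mice, act on many of the same genes through the glucocorticoid receptor, and adrenaline acts through adrenergic receptors.

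Values are FPKM, fragments per kilobase of transcript scaled to the mapped reads of the library. Log2 differences are ZT12 minus ZT0 of the deposited log2(FPKM + 0.01), with their standard error (SE) from limma, and a gene was called at a Benjamini-Hochberg adjusted p under 0.05. No counts were used. The step between low values puts the depth of the 8 libraries at 20.17 to 35.8 M reads (median 27.11), within the range of 15.95 to 35.8 over all 47. The 8 libraries were closely alike: correlations were 0.990 to 0.996 within ZT0, 0.986 to 0.994 within ZT12 and 0.989 to 0.993 between times. ZT0 replicates 2 and 3 share 29 exact values, and each of ZT12 replicates 6, 7 and 8 shares 22 to 31 with another of them. ZT0 replicates 1 and 4 and ZT12 replicate 5 share at most 1 exact value with any library of their group and so stand apart. Without these 3 libraries no gene was called by limma, with 649 of the 12000 tested genes at an unadjusted p under 0.05 against 1415 with all 8. This leaves ZT0 replicates 2 and 3 against ZT12 replicates 6, 7 and 8, so the smaller number of mice and the libraries left out cannot be told apart here. Values without these 3 libraries are given for the called genes that the naming rule takes.

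A small set of genes differed by time of day. Of 12000 genes tested, 93 (0.775%) were called, 71 higher at ZT12 (0.592%) and 22 lower (0.183%). The differences were small: the median size among the 93 was 0.38 on the log2 scale, and 3 reached 1. Those 3 were Snord42a, a small nucleolar RNA read at 0.202 to 0.706 FPKM at ZT0 and 0 to 0.0868 at ZT12, the slow-fibre troponin Tnnc1 and ENSMUSG00000094114, a gene without a symbol (1.65), and they are named because of that size. In 87 of the 93 the 4 ZT12 libraries all lay on the same side of the 4 ZT0 libraries. Such a separation was found in 1114 of all 12000 genes (9.28%), 752 with ZT12 higher (6.27%) and 362 with ZT12 lower (3.02%). The count of 93 fell to 24 without ZT12 replicate 5, 25 without ZT0 replicate 1, 40 without ZT12 replicate 8 and 57 without ZT0 replicate 4. With only these 8 libraries in the model, so that the spread was estimated from them alone, 1 gene was called, the MHC class II gene H2-Ab1 at -0.38, which is not among the 93. In that model Snrk and Per3 had an adjusted p of 0.0918, Cry2 and Nr1d1 of 0.101 and Clock of 0.107. With only the 16 RE-RE libraries 10 genes were called, 9 of them among the 93, including Snrk, Cry2, Per3, Clock, Fdft1, Mknk1 and Leo1, and with age as a covariate 53 were called. Because muscle was sequenced in bulk, fewer cells of a type and less RNA per cell cannot be told apart.

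Of the 3 clock activators Clock fell, and Arntl and Npas2 did not pass, while in each the ZT12 libraries lay below the ZT0 libraries. Arntl (ENSMUSG00000055116, GRCm38 chromosome 7, 113207465 to 113314126) was read at 10.7, 7.22, 8.13 and 11.4 FPKM in ZT0 replicates 1 to 4 and at 0.985, 3.99, 2.72 and 1.79 in ZT12 replicates 5 to 8. The restored gene was read in every library, and all ZT12 libraries lay below all ZT0 libraries. Its log2 difference of -2.13 ± 0.81 did not pass on the deposited scale (adjusted p = 0.247), where libraries of other groups at 0 widen the pooled spread. With only these 8 libraries in the limma model the SE was 0.39, and the Arntl difference still did not pass (adjusted p = 0.11). On log2(FPKM + 1) it passed at -1.68 ± 0.18 (adjusted p = 2.84e-07). Clock (ENSMUSG00000029238, chromosome 5, 76209868 to 76304792), which encodes the partner of BMAL1, stood at 3.23, 2.52, 2.8 and 3.08 FPKM at ZT0 and 1.61, 2.12, 2.04 and 1.84 at ZT12. It fell by 0.61 ± 0.09 (adjusted p = 0.000362), without overlap, and by 0.41 ± 0.11 (adjusted p = 0.42) without the 3 libraries that stand apart. Npas2, which can take the place of CLOCK, went from 1.94 ± 0.143 to 1.6 ± 0.0743 FPKM (SD, n = 4). Its libraries did not overlap, yet the difference of -0.27 ± 0.29 did not pass (adjusted p = 0.817).

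Among the 8 clock repressors, Per3 and Cry2 rose and 6 did not pass. Per3 (ENSMUSG00000028957, chromosome 4, 151003652 to 151044665) was at 2.92, 3.74, 3.09 and 2.28 FPKM at ZT0 and at 5.88, 5.26, 5.89 and 5.72 at ZT12, a rise of 0.94 ± 0.14 (adjusted p = 0.000362; 0.72 ± 0.18, adjusted p = 0.246, without the libraries that stand apart). Every ZT12 library was above every ZT0 library, and the ZT12 values lay close together. Cry2 (ENSMUSG00000068742, chromosome 2, 92403646 to 92434043), a cryptochrome that holds BMAL1 and CLOCK inactive, had 4.52, 6.57, 5.11 and 5.24 FPKM at ZT0 and 9.05, 8.61, 7.71 and 7.71 at ZT12. It rose by 0.63 ± 0.09 (adjusted p = 0.000272) and by 0.46 ± 0.11 (adjusted p = 0.246) without them. Per1, the Period gene that also answers to hormones and cAMP, split each group in a different way: 3.28, 7.49, 7.26 and 2.86 FPKM at ZT0 and 15, 8.81, 8.77 and 15.6 at ZT12. Replicates 1 and 4 were low at ZT0 and replicates 5 and 8 high at ZT12, with the other 4 libraries between 7.26 and 8.81. The Per1 difference of 1.28 ± 1.26 did not pass (adjusted p = 0.78), nor did it on log2(FPKM + 1) at 1.11 ± 0.34 (adjusted p = 0.105). Per2 went from 2.02 ± 0.599 to 3.49 ± 0.53 FPKM (0.82 ± 0.27, adjusted p = 0.149), and Ciart, another repressor of BMAL1 and CLOCK, from 1.39 ± 0.734 to 2.41 ± 0.0631 (1.05 ± 0.85, adjusted p = 0.708), both without overlap. Cry1 was at 8.14 ± 0.712 and 6.89 ± 0.786 FPKM, and the differences of the bHLH repressors Bhlhe40 (0.07) and Bhlhe41 (0.43) did not pass either.

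Among the nuclear receptors of the clock, Nr1d1 fell and its paralogue Nr1d2 rose. Nr1d1 (ENSMUSG00000020889, chromosome 11, 98767932 to 98775333), which encodes REV-ERB alpha, was at 46.3, 40.6, 39.5 and 32.2 FPKM at ZT0 and 15, 19.7, 25.4 and 22.6 at ZT12, a log2 difference of -0.96 ± 0.17 (adjusted p = 0.00277). The lowest ZT0 library was above the highest ZT12 library, and without the 3 libraries that stand apart the difference was -0.84 ± 0.21 (adjusted p = 0.282). Nr1d2, REV-ERB beta, had 21, 23.2, 22.1 and 17.3 FPKM at ZT0 against 28.7, 26.1, 27.2 and 29.8 at ZT12 and rose by 0.43 ± 0.09 (adjusted p = 0.0167; 0.29 ± 0.12, adjusted p = 0.819, without them). That call was lost with age as a covariate and without any of ZT0 replicates 1 and 4 and ZT12 replicates 5 and 8. Rora, an opposing receptor, had a difference of 0.18 ± 0.08, which did not pass (adjusted p = 0.326).

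Of the 4 D-box factors, Tef and Hlf rose. Tef (ENSMUSG00000022389, chromosome 15, 81802421 to 81826863) was at 30, 34.2, 31.7 and 28.4 FPKM at ZT0 and 43.9, 36.9, 42.9 and 45.6 at ZT12 (0.44 ± 0.08, adjusted p = 0.00211; 0.34 ± 0.1, adjusted p = 0.569, without the libraries that stand apart). Hlf had 1.38, 1.66, 1.61 and 1.11 FPKM at ZT0 and 2.36, 1.99, 2.4 and 2.46 at ZT12, a rise of 0.69 ± 0.14 (adjusted p = 0.00751) that was lost without ZT0 replicate 4, with age as a covariate and without the libraries that stand apart (0.47 ± 0.17, adjusted p = 0.782). Neither gene overlapped between times. Dbp, the most strongly rhythmic of these factors in many tissues, was read at 11.4, 28.6, 19.4 and 11.7 FPKM at ZT0 and 53.9, 38.2, 43.7 and 49.2 at ZT12. Its libraries also separated, but the difference of 1.47 ± 1.06 did not pass (adjusted p = 0.649), where values at 0 in other groups widen the pooled spread. With only the 16 RE-RE libraries in the model the same difference passed (adjusted p = 0.0294). With only these 8 libraries the Dbp difference had an SE of 0.29 and did not pass in limma (adjusted p = 0.11). Nfil3, the repressor that competes at D-boxes, was at 9.26 ± 2.96 and 7.4 ± 1.59 FPKM and overlapped. Over the 4 clock lists together, 5 of 19 genes rose, 2 fell and 12 did not pass, where 0.592% and 0.183% of all genes did. In 12 of the 19 all ZT12 libraries lay above all ZT0 libraries, in 4 below, and 3 overlapped, beside 6.27% above and 3.02% below over all genes. The clock lists had a median log2 difference of 0.43, beside 0.01 over all genes tested.

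**Figure D1:**
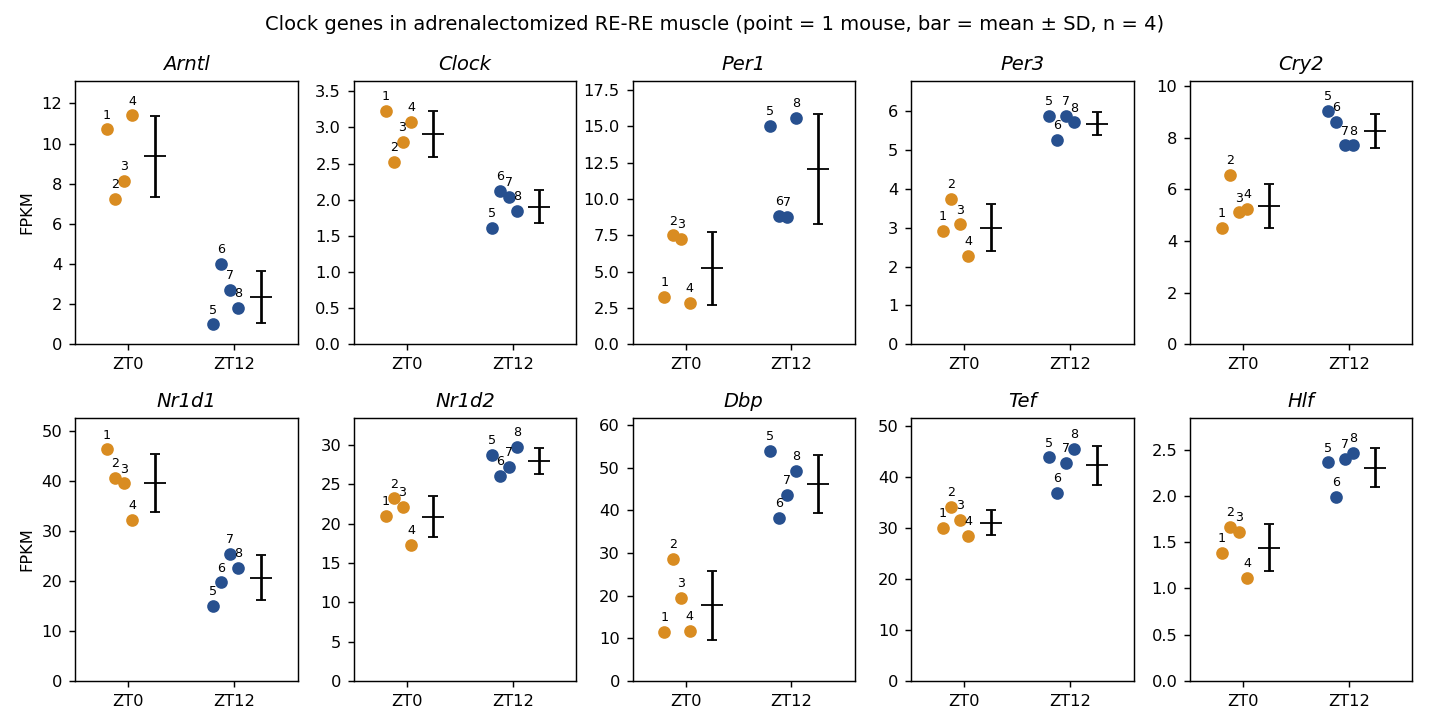
FPKM of 10 clock genes in the 4 ZT0 and 4 ZT12 libraries of adrenalectomized RE-RE mice (y axis, linear from 0), each point 1 mouse marked with its replicate number, with the mean and SD beside it. The times separate in all 10 genes shown, and for Per1 replicates 5 and 8 (15 and 15.6) lie above replicates 6 and 7 (8.81 and 8.77).

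Promoter windows of 300 bases, from RefSeq on GRCm38.p6, were searched for clock and hormone motifs because these genes move together. A window was matched by symbol for 55 of the 71 called rises, 16 of the 22 called falls and 8569 of the 12000 genes tested. Shown are 5 called or clock genes that hold a match, 5′ to 3′ on the gene's own strand, with the matched letters in capitals. Per3 holds the D-box letters TTANGTAA at 2 places, -205 and -158 from the start site. In Tef, the E-box CACGTG starts at -127. Arntl holds the ROR and REV-ERB element, searched as AANT followed by AGGTCA, 27 bases after the start. In Mknk1, a called rise, a D-box on the other strand starts at -238 and an E-box at -70. Leo1, a called fall, holds the ROR and REV-ERB element at -66.
Per3, chr4:151044616-151044915, minus strand: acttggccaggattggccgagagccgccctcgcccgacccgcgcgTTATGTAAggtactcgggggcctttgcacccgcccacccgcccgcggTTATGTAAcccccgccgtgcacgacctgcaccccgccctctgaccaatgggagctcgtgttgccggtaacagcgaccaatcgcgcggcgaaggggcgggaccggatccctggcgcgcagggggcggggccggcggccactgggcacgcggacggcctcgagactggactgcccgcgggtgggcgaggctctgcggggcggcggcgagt
Tef, chr15:81802423-81802722, plus strand: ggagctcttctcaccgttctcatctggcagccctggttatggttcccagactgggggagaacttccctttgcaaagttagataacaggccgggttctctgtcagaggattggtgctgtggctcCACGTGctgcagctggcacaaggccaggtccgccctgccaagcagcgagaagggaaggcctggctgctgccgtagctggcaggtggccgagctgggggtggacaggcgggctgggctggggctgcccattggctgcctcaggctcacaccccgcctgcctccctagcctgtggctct
Arntl, chr7:113207261-113207560, plus strand: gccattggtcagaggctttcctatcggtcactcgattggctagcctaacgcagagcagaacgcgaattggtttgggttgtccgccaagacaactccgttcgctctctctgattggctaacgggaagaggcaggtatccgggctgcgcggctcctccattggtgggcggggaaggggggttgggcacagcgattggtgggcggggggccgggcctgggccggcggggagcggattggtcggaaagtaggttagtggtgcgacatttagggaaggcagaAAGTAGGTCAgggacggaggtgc
Mknk1, chr4:115838948-115839247, plus strand: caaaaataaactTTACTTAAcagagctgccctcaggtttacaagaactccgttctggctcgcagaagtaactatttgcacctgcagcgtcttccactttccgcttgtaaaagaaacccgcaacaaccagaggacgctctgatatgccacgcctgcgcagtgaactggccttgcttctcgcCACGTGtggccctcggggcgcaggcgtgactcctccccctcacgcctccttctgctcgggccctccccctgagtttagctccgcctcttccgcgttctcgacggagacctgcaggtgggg
Leo1, chr9:75441274-75441573, plus strand: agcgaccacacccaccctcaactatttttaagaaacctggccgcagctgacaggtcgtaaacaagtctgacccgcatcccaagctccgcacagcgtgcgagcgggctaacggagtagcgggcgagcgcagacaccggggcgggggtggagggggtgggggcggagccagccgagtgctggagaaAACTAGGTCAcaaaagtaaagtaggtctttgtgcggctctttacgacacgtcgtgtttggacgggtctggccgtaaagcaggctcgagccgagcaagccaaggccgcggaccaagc

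Both strands were searched, a gene with several windows was counted once, and none of the motifs contains another. The E-box letters CACGTG were in 13 of the 55 rises (23.6%) and 4 of the 16 falls (25%), beside 1039 of the 8569 tested genes (12.1%). D-box letters TTANGTAA were in 3 rises (5.45%: Mknk1, Per3 and Slc27a1) and in 1.75% of tested genes. The ROR and REV-ERB element was in 1 fall, Leo1, and in 0.198% of tested genes, and its variant ending in GGGTCA was in none of the called genes' windows. The cAMP element TGACGTCA was in 1 rise, Hlf, and 2 falls, Slc25a36 and Wsb1, beside 3.66% of tested genes. The glucocorticoid element, searched as AGAACA and TGTNCT with 3 bases between, was in 2 of the 8569 tested genes and in none of the called ones. These are matches of letters in a short window, with no binding data behind them.

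Outside the clock, the called rises with the smallest p were Snrk, Fdft1, Maco1, Mknk1, Tcap, Zfp612 and Csnk1e, and every one of these 7 kept its call without any single library of the 8. Snrk (ENSMUSG00000038145, chromosome 9, 122117266 to 122169702), a kinase related to AMPK, was at 7.55, 8.34, 9.17 and 7.89 FPKM at ZT0 and 12.9, 11, 11.2 and 12.7 at ZT12, a rise of 0.54 ± 0.07 and the smallest adjusted p of all (3.26e-05). Without the libraries that stand apart Snrk differed by 0.41 ± 0.09 (adjusted p = 0.147). Fdft1, squalene synthase, which makes the first committed intermediate of sterol synthesis, had 15.6, 17.1, 16.3 and 16 FPKM at ZT0 and 23.8, 21.3, 21.6 and 24.4 at ZT12, a rise of 0.48 ± 0.07 (adjusted p = 0.000362; 0.42 ± 0.1, adjusted p = 0.21, without them). Both genes separated the times completely. Mknk1, the kinase of the translation factor eIF4E, was at 7.39, 7.67, 7.74 and 7.64 FPKM and then at 10.2, 9.11, 9.75 and 10.3 (0.37 ± 0.06, adjusted p = 0.000508; 0.33 ± 0.08, adjusted p = 0.21, without them). Maco1, a membrane protein of the endoplasmic reticulum, rose by 0.42 ± 0.07 and the zinc finger gene Zfp612 by 0.6 ± 0.11. Without the libraries that stand apart Maco1 was at 0.25 ± 0.08 (adjusted p = 0.522) and Zfp612 at 0.42 ± 0.14 (adjusted p = 0.676).

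Of the 16 genes of the muscle rhythmic output list 3 rose, Tcap, Usp2 and Mylk4, and 13 did not pass, with a list median of 0.23. Over all genes 0.592% were called higher. Tcap (ENSMUSG00000007877, chromosome 11, 98383811 to 98384953), the titin cap protein of the Z-disc, was at 1330, 1850, 1570 and 1480 FPKM at ZT0 and 2790, 1960, 2180 and 2740 at ZT12 (0.63 ± 0.1, adjusted p = 0.000826; 0.41 ± 0.13, adjusted p = 0.589, without the libraries that stand apart). Usp2 (ENSMUSG00000032010, chromosome 9, 44067021 to 44095627), a deubiquitinating enzyme whose transcript cycles in many tissues, had 21.1, 31.3, 32.7 and 24.6 FPKM at ZT0 and 57.5, 40, 40.2 and 59.7 at ZT12 (0.84 ± 0.16, adjusted p = 0.00277; 0.52 ± 0.19, adjusted p = 0.778, without them). In both genes replicates 5 and 8 were the highest and replicate 1 the lowest, and no ZT0 library reached a ZT12 library. Mylk4, a myosin light chain kinase, was at 178, 234, 231 and 181 FPKM and at 384, 248, 286 and 397 (0.66 ± 0.14, adjusted p = 0.0156), a call lost without any of replicates 1, 4, 5 and 8 and, at 0.39 ± 0.18 (adjusted p = 0.897), without the libraries that stand apart. Csnk1e, the casein kinase that phosphorylates PER proteins, rose by 0.34 ± 0.06 (adjusted p = 0.00277; 0.27 ± 0.08, adjusted p = 0.527, without them), and with Usp2 it made up the 2 called of 6 genes of clock protein turnover.

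The called falls were led by Clock, Leo1 and Nr1d1. Leo1, a subunit of the PAF1 complex that travels with RNA polymerase II, was at 14.4, 12.5, 12.2 and 13.3 FPKM at ZT0 and 8.11, 10.6, 10.3 and 9.23 at ZT12 (-0.46 ± 0.07, adjusted p = 0.000406; -0.3 ± 0.08, adjusted p = 0.455, without the libraries that stand apart). Ptpn4, a tyrosine phosphatase, had 4.81, 3.16, 3.56 and 4.27 FPKM and then 1.57, 2.69, 2.69 and 2.31 (-0.78 ± 0.15, adjusted p = 0.00473; -0.39 ± 0.17, adjusted p = 0.847, without them). In Leo1 and Ptpn4 replicates 1 and 4 were the highest at ZT0 and replicate 5 the lowest at ZT12. Ptpn4 lost its call without replicate 1 or 5, as did Cpeb4, an RNA-binding regulator of translation (-0.45 ± 0.1, adjusted p = 0.0135; -0.23 ± 0.11, adjusted p = 0.897, without the libraries that stand apart). The other falls that the naming rule takes were Mif4gd (-0.26), Wsb1 (-0.57), Eya1 (-0.41), Klhl30 (-0.47) and Nexn (-0.38), each without overlap. Wsb1 encodes a ubiquitin ligase subunit, Eya1 a coactivator of the fast-fibre programme and Nexn an actin-binding Z-disc protein. These 5 lost their call without either of replicates 1 and 5 and without 1 to 2 further libraries. Without the libraries that stand apart Mif4gd was at -0.2 ± 0.07, Wsb1 at -0.33 ± 0.15, Eya1 at -0.2 ± 0.1, Klhl30 at -0.29 ± 0.13 and Nexn at -0.28 ± 0.11, with adjusted p-values of 0.778, 0.897, 0.947, 0.897 and 0.819 in that order.

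Metabolic and hormone lists held few calls, where 0.592% of all genes were called higher and 0.183% lower. Slc27a1, a fatty acid transporter, was the 1 of 21 genes of fatty acid uptake and oxidation that rose, from 27.6, 24.4, 30.1 and 28.4 FPKM to 40.7, 37.4, 35.6 and 43 (0.5 ± 0.11, adjusted p = 0.016). Its difference was 0.51 ± 0.15 without the libraries that stand apart (adjusted p = 0.513). Of these 21 genes 12 were at an unadjusted p under 0.05 in limma, beside 11.8% of all genes. A positive difference was found in 20, with a median of 0.19, beside 0.01 over all genes tested. Irs1, the adaptor of the insulin receptor, was the 1 of 16 insulin and growth factor genes that fell. Its libraries read 12.6, 15.9, 16.5 and 13.9 FPKM at ZT0 and 10.9, 10.8, 9.23 and 7.71 at ZT12 (-0.61 ± 0.14, adjusted p = 0.0281; -0.82 ± 0.19, adjusted p = 0.189, without them). The Irs1 call held in 7 of 17 alternatives. Herpud1, of the endoplasmic reticulum stress list, rose by 0.28 ± 0.07 (adjusted p = 0.0281; 0.2 ± 0.08, adjusted p = 0.819, without them), 1 of 18 tested.

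None of the 27 glucocorticoid receptor targets was called by limma in adrenalectomized RE-RE mice, where 0.775% of all genes were, with 6 at an unadjusted p under 0.05, where 11.8% of all genes were, 19 above 0 and a median of 0.26. Glul, glutamine synthetase, was read at 29.3, 58.8, 54.6 and 56.7 FPKM at ZT0 and at 104, 62.5, 64.1 and 89.4 at ZT12, a difference of 0.7 ± 0.2 (adjusted p = 0.0922). No ZT0 library reached the ZT12 libraries, but ZT0 replicate 1 alone was low and ZT12 replicates 5 and 8 were high. Klf9, a transcription factor induced by glucocorticoids, had 39.3, 40.2, 39.5 and 36.7 FPKM and then 49, 40.5, 45.1 and 52.5 (0.26 ± 0.09, adjusted p = 0.203). Mt2, a metallothionein, was listed at 0, 0, 0 and 23 FPKM at ZT0 and at 5.84, 0, 0 and 0 at ZT12. In RE-RE sham mice, where 5.73% of all genes were called higher, 14 of the same 27 rose and the median was 0.8, in WT sham mice 17 rose and 2 fell (median 1.2), beside 14% and 9.5% of all genes, and in WT ADX mice 5 rose and 2 fell (median 0.06), beside 7.64% and 3.38%. The test of the difference between adrenalectomized and sham RE-RE mice called 1 of the 27, Sult1a1.

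**Figure D2:**
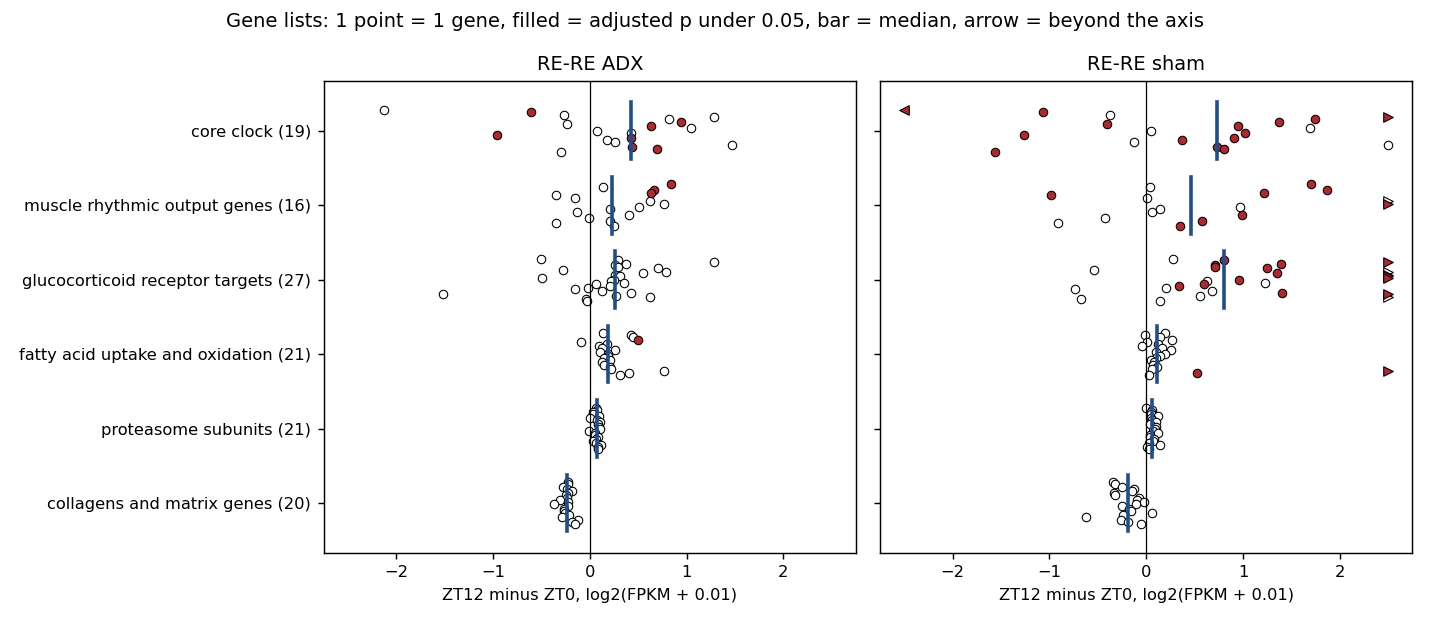
Log2 difference, ZT12 minus ZT0, of each gene in 6 lists (1 point per gene, filled where the adjusted p was under 0.05, bar at the list's median, arrow where a value lies beyond the axis), in adrenalectomized RE-RE mice on the left and sham-operated RE-RE mice on the right. Among the 27 glucocorticoid receptor targets 0 points are filled on the left and 14 on the right, with medians of 0.26 and 0.8.

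Most of the other pathway lists held no call. None of 20 collagen and matrix genes was called, and none reached an unadjusted p under 0.05, while all 20 had a negative difference, from -0.37 to -0.12, with a median of -0.24. Of the 8 fibroblast markers 0 were positive, 0 were called by limma and 0 reached an unadjusted p under 0.05, with a median of -0.19. Their summed level was 420 to 541 FPKM at ZT0 and 365 to 466 at ZT12, and none was at 0. The lists are not separate, since 4 of the 8 markers, Col1a1, Col3a1, Dcn and Lum, are in both, and the part of fibroblasts in the collagen values was not tested. Of 16 FOXO and atrophy genes 10 reached an unadjusted p under 0.05 and none passed adjustment in limma, with a median of 0.16, beside 11.8% of all genes at that unadjusted level. Heat shock genes (24 tested, 5 at that level, median -0.01), immediate early genes (14, 1 and 0.11) and nuclear oxidative phosphorylation subunits (20, 1 and 0.04) held no call either.

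Marker levels were those of a fast-fibred muscle. The 9 fast-fibre markers summed to 63700 to 67400 FPKM at ZT0 and 63400 to 76200 at ZT12, against 84.6 to 103 and 81.3 to 85.9 for the 6 slow-fibre markers. Of all marker lists only the slow-fibre list held a call. Tnnc1, slow troponin C, was listed at 2.33, 7.23, 4.89 and 2.19 FPKM at ZT0 and 1.96, 0, 0 and 4.32 at ZT12. Its times overlapped, the fall of 4.43 ± 1.04 on the log2 scale (adjusted p = 0.0281; -6.3 ± 1.24, adjusted p = 0.147, without the libraries that stand apart) rests on 2 libraries at 0, and the call was lost on log2(FPKM + 1). Of the 6 slow-fibre markers 5 had a negative difference, with a median of -1.94, and 4 reached an unadjusted p under 0.05 in limma, beside 11.8% of all genes. Myl3, the slow myosin light chain that makes up most of the summed level, had a difference of 0.04 ± 0.26, and the other 5 markers summed to 11.1 to 34.6 FPKM at ZT0 and 2.59 to 20.2 at ZT12. Myh7, the slow myosin heavy chain, was at 0.728, 6.37, 2.08 and 0.91 FPKM and then at 0.594, 0, 0 and 2.05 (-4.04 ± 1.05, adjusted p = 0.051). Tnni1, slow troponin I, was at 0.757, 2.01, 1.32 and 0.797 and then at 0.728, 0.162, 0 and 1.11 (-2.55 ± 0.75, adjusted p = 0.0954). In these genes, chosen after their values were seen, ZT12 replicates 6 and 7 were the lowest and ZT0 replicate 2 the highest, and the part of slow fibres in the Tnnc1 value was not tested. Summed endothelial markers were 196 to 209 and 157 to 226 FPKM, macrophage markers 41 to 51.6 and 36.6 to 49.2, satellite cell markers 6.06 to 8.22 and 6.35 to 7.12, and adipocyte markers 15.3 to 19.5 and 16.6 to 32.3. None of the 8 neutrophil and 8 lymphocyte markers is in the table.

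Most of the 93 genes moved the same way in other mice of the study. The time effects of RE-RE sham, WT ADX and WT sham mice share no library with that of adrenalectomized RE-RE mice. All 4 were fitted in the same model with the same pooled spread for each gene, so the calls of a gene are not independent. The other 3 called 1291 (10.8%), 1322 (11%) and 2818 (23.5%) of the 12000 genes. Higher calls made up 5.73%, 7.64% and 14% of all genes in these 3 conditions and lower calls 5.03%, 3.38% and 9.5%. Of the 93 genes, 70 were called in the same direction in RE-RE sham mice (75.3% of the 93 and 5.42% of the sham list). The count was 59 in WT ADX mice (63.4% and 4.46%) and 78 in WT sham mice (83.9% and 2.77%), and 45 genes were called in all 4 conditions. The 71 rises had a median of 0.35 here, 0.33 in RE-RE sham, 0.31 in WT ADX and 0.38 in WT sham mice. The 22 falls had medians of -0.48, -0.79, -0.31 and -0.65 in the same order. Because the genes were chosen by their test in adrenalectomized RE-RE mice, the first median of each set is a description.

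The 7 called clock genes, Per3, Clock, Tef, Nr1d1, Cry2, Nr1d2 and Hlf, were called in all 4 conditions. Per3 rose by 0.94 ± 0.14 in adrenalectomized RE-RE mice, 1.37 ± 0.14 in RE-RE sham, 0.99 ± 0.16 in WT ADX and 2.04 ± 0.14 in WT sham mice. Clock changed by -0.61 ± 0.09, -1.07 ± 0.09, -0.63 ± 0.1 and -1.27 ± 0.09 in the same order. Tef rose by 0.44 ± 0.08, 0.73 ± 0.08, 0.64 ± 0.09 and 1.21 ± 0.08. In these 3 genes the adrenalectomized RE-RE mice had the smallest value of the 4, but the test of the difference from RE-RE sham or WT ADX mice passed for none of them. Nr1d1 had another order, -0.96 ± 0.17, -1.26 ± 0.17, -0.62 ± 0.19 and -0.78 ± 0.17. Cry2 (0.63, 0.95, 0.6 and 1.04) and Nr1d2 (0.43, 0.91, 0.31 and 0.79) had their smallest value in WT ADX mice. Hlf was at 0.69, 0.8, 0.8 and 1.5. The values in that order of conditions were 0.48 ± 0.07, 0.35 ± 0.07, 0.41 ± 0.08 and 0.45 ± 0.07 for Fdft1, and 0.37 ± 0.06, 0.22 ± 0.06, 0.43 ± 0.06 and 0.43 ± 0.06 for Mknk1. Irs1 was called in both RE-RE conditions and WT sham, and in WT ADX mice it was at -0.11 ± 0.16 (adjusted p = 0.732). Of the 19 clock genes, 14 were called in RE-RE sham mice, 11 in WT ADX mice and 17 in WT sham mice, against 7 here. Over all genes 10.8%, 11%, 23.5% and 0.775% were called in the same order.

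**Figure D3:**
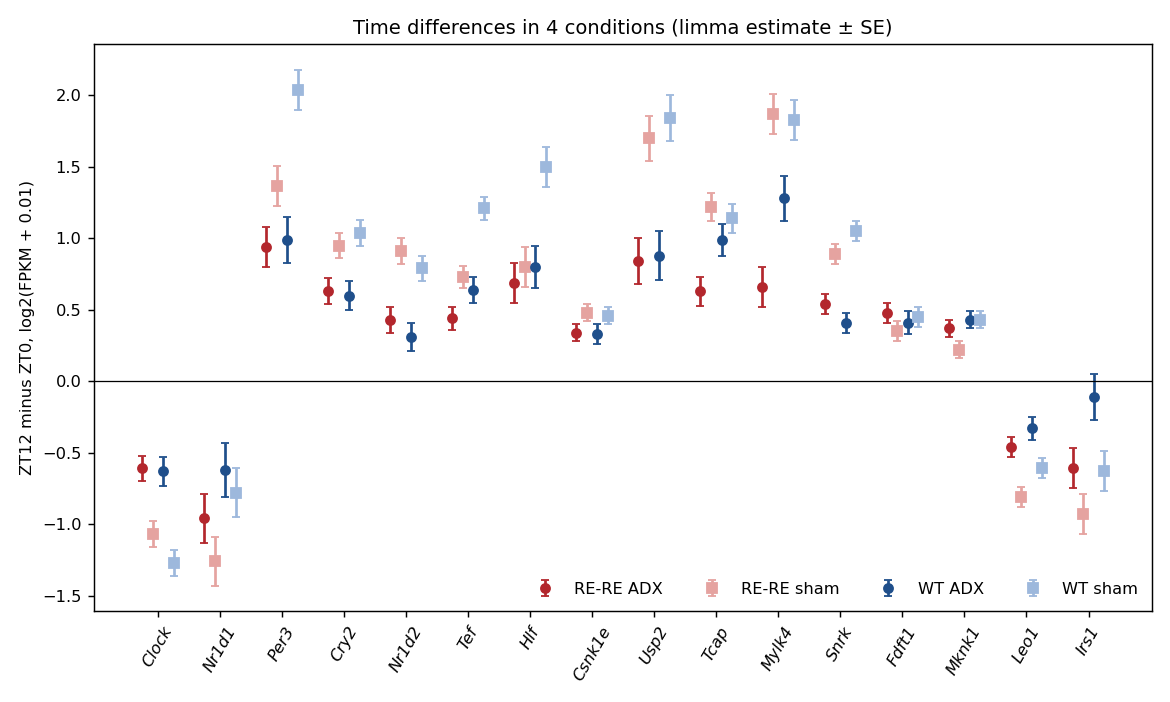
Log2 difference, ZT12 minus ZT0, of 16 genes in adrenalectomized RE-RE, sham RE-RE, adrenalectomized WT and sham WT mice (points, with bars of 1 SE from limma). Per3 lies at 0.94, 1.37, 0.99 and 2.04, while Fdft1 lies between 0.35 and 0.48 in all 4 conditions.

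Only 5 of the 93 genes were called in none of the other 3 conditions: Tnnc1, Ptp4a3, Oard1, Dnajb6 and Bzw2, named because they are so few. Ptp4a3, a phosphatase of the PRL family, rose by 0.44 ± 0.08 (adjusted p = 0.00362) and stood at 0.21 ± 0.08 in RE-RE sham mice (adjusted p = 0.101). Dnajb6, a co-chaperone of the Z-disc, rose by 0.25 ± 0.05 (adjusted p = 0.00424) and stood at 0.11 ± 0.05 (adjusted p = 0.148). None of these 5 passed the tests of a difference from RE-RE sham or WT ADX mice, so a time effect particular to adrenalectomized RE-RE mice was not shown for them.

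The time effect differed between adrenalectomized and sham RE-RE mice for 8 of 12000 genes (0.0667%), 5 with a more positive value after adrenalectomy (0.0417%) and 3 with a more negative one (0.025%), with 838 genes (6.98%) at an unadjusted p under 0.05. In 7 of the 8 sham mice had the larger time difference: Arntl, Dyrk2, Rreb1, Ypel2 and Gramd4, lower at ZT12, and Mylk4 and Sult1a1, higher. The count rose most without 6 libraries, to 17 and 16 without ZT12 replicates 5 and 8 of the adrenalectomized mice. In sham mice it rose to 13 and 19 without ZT0 replicates 1 and 3, and to 15 and 13 without ZT12 replicates 5 and 7. Without any other single library it was 8 to 11. Dyrk2, a kinase of the DYRK family, was at 17.9, 15.7, 13.7 and 17.6 FPKM at ZT0 and 10.8, 14.1, 14.4 and 10.8 at ZT12 after adrenalectomy. In sham mice Dyrk2 was at 20.4, 20.5, 15.8 and 22 FPKM and fell to 7.78, 6.83, 8.31 and 6.7, so the sham times lay far apart while the adrenalectomized times overlapped. The Dyrk2 time effects were -0.38 ± 0.13 and -1.4 ± 0.13, and their difference 1.02 ± 0.18 passed (adjusted p = 0.00359; 1.17 ± 0.22, adjusted p = 0.00994, without the libraries that stand apart). Ypel2, of the Yippee-like family, had 6.1, 4.22, 4.93 and 5.8 FPKM and then 2.86, 4.52, 4.17 and 3.23, against 7.5, 7.34, 6.94 and 6.63 and then 2.29, 1.98, 2.17 and 2.45 in sham mice. The Ypel2 effects of -0.52 ± 0.15 and -1.67 ± 0.15 differed by 1.15 ± 0.21 (adjusted p = 0.00541; 1.39 ± 0.25, adjusted p = 0.00489, without them). Rreb1, a zinc finger transcription factor, had effects of -0.17 ± 0.08 and -0.83 ± 0.08, a difference of 0.66 ± 0.11 (adjusted p = 0.00257; 0.79 ± 0.13, adjusted p = 0.00219, without them).

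Mylk4 went in sham mice from 131, 98.1, 137 and 132 FPKM to 383, 485, 447 and 499, a rise of 1.87 ± 0.14. All sham ZT0 libraries lay below all adrenalectomized ZT0 libraries, while the ZT12 libraries overlapped, with sham replicate 5 at 383. The Mylk4 difference between conditions was -1.21 ± 0.2 (adjusted p = 0.00257; -1.34 ± 0.23, adjusted p = 0.00489, without the libraries that stand apart). Sult1a1, a phenol sulfotransferase, was read at 9.48, 10.8, 11 and 10.8 FPKM and 15.8, 11.3, 13 and 17.4 after adrenalectomy (0.43 ± 0.12), and at 6.77, 7.41, 4.88 and 6.63 and then 15.4, 17.1, 17 and 17.4 in sham mice (1.4 ± 0.12). ZT0 libraries of Sult1a1 were higher after adrenalectomy than in sham mice without overlap. Its difference was -0.96 ± 0.16 (adjusted p = 0.00257; -1.13 ± 0.2, adjusted p = 0.00489, without them). For Gramd4, a membrane protein with a GRAM domain, the effects were 0.12 ± 0.1 and -0.59 ± 0.1 (difference 0.72 ± 0.13, adjusted p = 0.00769; 0.78 ± 0.16, adjusted p = 0.0239, without them). Red blood cell, macrophage and slow-fibre markers also had a more negative time effect after adrenalectomy than in sham mice, in 6 of 6, 10 of 10 and 6 of 6 genes, with median differences of -0.83, -0.27 and -1.82. None of them was called by limma, and 1, 0 and 3 reached an unadjusted p under 0.05, beside 6.98% of all genes. Adipocyte, fibroblast and tendon markers were more negative in all but 1 of 6, 8 and 7 genes. Their median differences were -1.41, -0.14 and -0.07, with 0 called and 0 at that unadjusted level in each list. In sham mice adipocyte markers summed to 3.42 to 26.6 FPKM at ZT0 and 12.1 to 19.9 at ZT12. The red blood cell markers summed to 138 to 180 FPKM at ZT0 and 133 to 152 at ZT12 after adrenalectomy, and to 69.5 to 155 and 125 to 289 in sham mice. Macrophage markers in sham mice summed to 28.6 to 48.2 and 24 to 55.2 FPKM, and the slow-fibre markers other than Myl3 to 13.3 to 32.2 and 8.59 to 37.9. No marker of these lists was at 0 in every library of a group, and their part in the differences was not tested.

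For Arntl, sham ZT0 libraries read 13.4, 15.2, 14.8 and 14.2 FPKM and sham ZT12 libraries were listed at 0.327, 0, 0 and 0, against 0.985 to 3.99 at ZT12 after adrenalectomy. ZT0 was higher and ZT12 lower in sham mice, each without overlap. Because of the values at 0 the log2 difference of 7.09 ± 1.14 (adjusted p = 0.00257) depends on the offset, and on log2(FPKM + 1) it was 2.16 ± 0.26 (adjusted p = 3.41e-06). It was 7.27 ± 1.44 (adjusted p = 0.014) without the libraries that stand apart. No other clock gene passed this test. Clock (0.46 ± 0.13, adjusted p = 0.186), Nr1d2 (-0.48 ± 0.13, adjusted p = 0.171), Usp2 (-0.86 ± 0.22, adjusted p = 0.124) and Tcap (-0.59 ± 0.15, adjusted p = 0.121) had the smaller effect after adrenalectomy without passing. The glucocorticoid targets Klf9 (-0.45 ± 0.13, adjusted p = 0.202) and Sgk1 (-1.02 ± 0.29, adjusted p = 0.186) did not pass either. Snord42a, the remaining called gene, was at 0 in 3 of 4 libraries at ZT12 after adrenalectomy and at ZT0 in sham mice, and never exceeded 0.967 FPKM. The called genes other than Snord42a kept their calls under each alternative run but 2, with only the 16 RE-RE libraries in the model and with the replicate number as a block, where none of them passed.

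Between adrenalectomized RE-RE and WT mice the time effect differed for 34 of 12000 genes (0.283%), 13 with a more positive value in RE-RE mice (0.108%) and 21 with a more negative one (0.175%), with 1044 genes (8.7%) at an unadjusted p under 0.05. None of the clock genes was among them except Npas2. None of the genes named for this difference had a called time effect in adrenalectomized RE-RE mice. Tacc2, a coiled-coil protein of the centrosome, was at 54.1, 50.8, 42.9 and 57.1 FPKM at ZT0 and 52.9, 47.8, 49 and 59.9 at ZT12 in RE-RE mice, and at 14.1, 7.2 and 7.46 and then 42, 41.9, 37.1 and 41.5 in WT mice. WT mice at ZT0 were low and the other 3 groups high. The Tacc2 effects of 0.03 ± 0.17 and 2.15 ± 0.19 differed by -2.12 ± 0.26 (adjusted p = 1.66e-06), a call kept in 24 of 24 alternatives. Vgll2, a muscle cofactor of TEAD factors, had 55.9, 57.8, 51.7 and 67.7 FPKM and then 60.2, 70.5, 44.2 and 55.5 in RE-RE mice, and 58, 70.3 and 37.4 and then 15, 9.39, 15.3 and 29.4 in WT mice. Here WT mice at ZT12 were the low group, and the effects of -0.03 ± 0.21 and -1.75 ± 0.23 differed by 1.72 ± 0.31 (adjusted p = 0.00356). Without the libraries that stand apart the difference was -2.0 ± 0.3 for Tacc2 (adjusted p = 0.000347) and 1.78 ± 0.36 for Vgll2 (adjusted p = 0.0278).

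Plin3, a lipid droplet coat protein, was at 15.2, 9.12, 13.8 and 14.7 FPKM and 12.6, 13.8, 9.12 and 18.6 in RE-RE mice and at 0.19, 1.23 and 1.15 and then 4.84, 3.53, 2.47 and 4.54 in WT mice. All RE-RE libraries lay above all WT libraries, at both times. The difference in Plin3 time effects, -2.48 ± 0.49 (adjusted p = 0.00843), was -2.26 ± 0.58 (adjusted p = 0.172) without the libraries that stand apart. Ybx2, a Y-box RNA-binding protein, had effects of 0.05 ± 0.17 and 1.54 ± 0.18 (difference -1.49 ± 0.25, adjusted p = 0.00116), and Rps6ka5, the kinase MSK1, of 0.08 ± 0.25 and 2.02 ± 0.27 (-1.94 ± 0.36, adjusted p = 0.00528). The remaining named genes with more negative values were Aox1 (-0.81), Pla2g7 (-1.48), Ston2 (-0.6), Eef2k (-0.61), Ccdc9b (-0.58), Sox10 (-2.0) and the histone gene Hist1h3d (-2.02), whose near-identical copies make its value uncertain. On the other side were Camta1, a calmodulin-binding transcription activator (0.6 ± 0.12), and Plvap, a diaphragm protein of endothelium (0.85 ± 0.18), which was at 15.5 to 19.4 FPKM in RE-RE mice and 3.9 to 9.3 in WT mice. Without the libraries that stand apart Ybx2 (-1.57, adjusted p = 0.0117) and Camta1 (0.7, adjusted p = 0.0213) still passed. Those that then did not were Rps6ka5 (-1.81, adjusted p = 0.107), Plvap (0.84, 0.175), Aox1 (-0.92, 0.0508), Pla2g7 (-1.42, 0.225), Ston2 (-0.64, 0.12), Eef2k (-0.54, 0.299), Ccdc9b (-0.57, 0.193), Sox10 (-1.95, 0.281) and Hist1h3d (-2.11, 0.12), each with its log2 difference and adjusted p.

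In 3 named genes the difference from WT mice involved values at 0. Such values were more common in every WT ADX library (233 to 335 genes at 0) than in the adrenalectomized RE-RE libraries (85 to 140). Estimated depth was 15.95 to 26.47 M reads in WT ADX and 20.17 to 35.8 M in adrenalectomized RE-RE libraries. The part of either in these differences was not tested. Npas2 was at 0.283, 0.278 and 0.289 FPKM in WT ADX mice at ZT0 and at 0 in all 4 at ZT12, against 1.53 to 2.06 over the RE-RE libraries. Ddit4, an inhibitor of mTORC1, was read at 9.94, 10.8, 10.8 and 2.36 FPKM and then 12, 12.1, 11.1 and 15.4 in RE-RE mice, and at 0.854, 2.93 and 2.6 and then 0, 0, 0 and 0 in WT mice. Fst, follistatin, was between 1.91 and 3.1 FPKM in RE-RE mice and at 0.539, 0.529 and 0.435 and then 0.286, 0, 0 and 0 in WT mice. Npas2 and Fst were higher in every RE-RE library than in every WT ADX library, and so was Ddit4 in all RE-RE libraries but ZT0 replicate 4. On log2(FPKM + 1) only Tacc2 (-2.0, adjusted p = 8.51e-06) and Vgll2 (1.65, adjusted p = 0.0114) passed of the 34. The count of 34 was 19 without ZT12 replicate 7 of the RE-RE mice, 20 without their ZT0 replicate 3, and 89 and 52 without WT ADX ZT0 replicates 1 and 3. Without the libraries that stand apart it was 11, with Tacc2, Vgll2, Camta1, Ybx2 and Npas2 (4.63, adjusted p = 1.77e-06) among them, while Ddit4 (7.79, adjusted p = 0.255) and Fst (4.56, adjusted p = 0.0548) did not pass.

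Markers of other cell types were also compared between these mice, and the test of the difference in time effects passed for 1 of them, Sox10. Of 7 tendon markers 3 were called lower at ZT12 in WT ADX mice, as were 4 of 10 macrophage and 2 of 8 fibroblast markers, beside 3.38% of all genes, against 0 of each in adrenalectomized RE-RE mice. The difference in time effects was positive for 7 of 7, 9 of 10 and 7 of 8 of them (medians 2.67, 0.56 and 0.52) and negative for 6 of 6 red blood cell markers (median -0.82) and 5 of 6 slow-fibre markers (median -2.25). It passed for none of these markers by limma, with 3 tendon, 1 macrophage, 1 fibroblast, 0 red blood cell and 4 slow-fibre markers at an unadjusted p under 0.05, beside 8.7% of all genes. Sox10, above, is the 1 of 8 Schwann cell and nerve markers for which it did. Tendon markers summed to 14.8 to 64.4 FPKM at ZT0 and 5.59 to 28.8 at ZT12 in WT ADX mice, where Comp was at 0 in all 4 ZT12 libraries and Fmod, Thbs4 and Cilp2 in 3 of 4, and to 87.2 to 153 and 102 to 125 in adrenalectomized RE-RE mice. In WT ADX mice macrophage markers summed to 37.6 to 81.9 and 24.3 to 36.4 FPKM, slow-fibre markers other than Myl3 to 4.72 to 12 and 8.75 to 10.8, fibroblast markers to 200 to 431 and 133 to 214, and red blood cell markers to 76.2 to 260 and 121 to 338. Their part in the differences from WT mice was not tested.

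**Figure D4:**
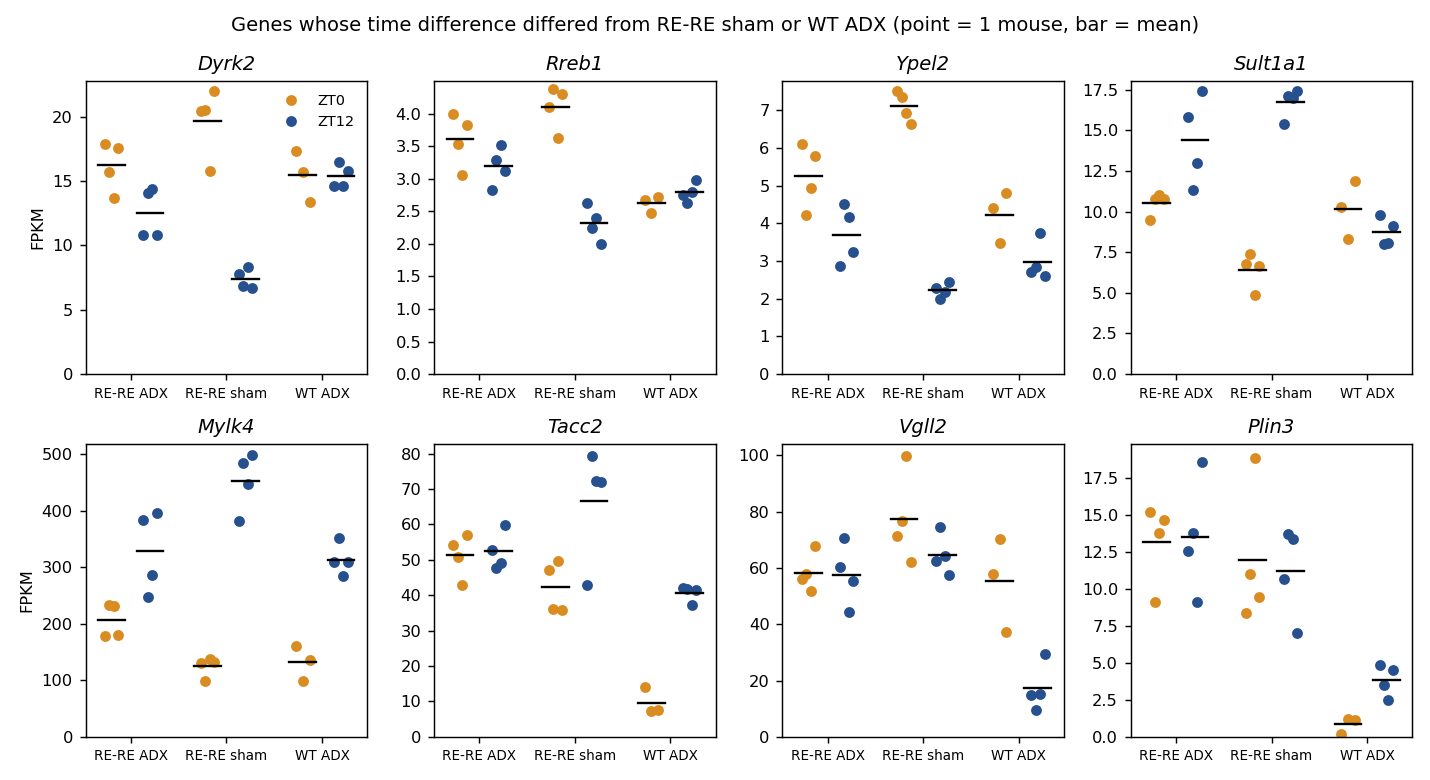
FPKM per mouse (points, with a bar at the mean) of 8 genes whose time effect in adrenalectomized RE-RE mice differed from that in sham RE-RE mice (Dyrk2, Rreb1, Ypel2, Sult1a1, Mylk4) or in adrenalectomized WT mice (Tacc2, Vgll2, Plin3), at ZT0 and ZT12 in the 3 conditions. Tacc2 lies between 42.9 and 59.9 in all 8 adrenalectomized RE-RE libraries and between 7.2 and 14.1 in WT ADX mice at ZT0.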

How the data were processed

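RNA from whole tibialis anterior was sequenced as single-end reads on an Illumina instrument, per the labels. The submitters' processing notes name the build GRCm38 and, in no stated order, HISAT2 2.1.0, edgeR 3.30.0, FastQC 0.11.8, featureCounts 1.6.2 and Trim Galore 0.5.0. The authors deposited 1 table of log2 values for 13500 genes and 47 libraries; its lowest value is log2 of 0.01, so the values were read as log2(FPKM + 0.01). The step that makes FPKM is not given in the sources used here, and the FPKM values printed are the deposited log2 values converted back. Every column mapped to a sample, leaving 0 unmapped, and 13441 of the 13500 gene identifiers had a symbol in GENCODE.

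Genes reaching 1 FPKM in at least 3 libraries (12000) were tested with limma 3.58.1 in R 4.3.3, with 12 group means, 35 residual degrees of freedom and a trended prior, two-sided. Each library is 1 mouse, so p-values measure the spread between mice. The 3 tests were the time effect in adrenalectomized RE-RE mice and its difference from the time effects of RE-RE sham and WT ADX mice. The time effects of those groups and of WT sham mice were fitted in the same model for comparison. Scripts were tested on simulated data.

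For each test the text names up to 10 called rises and 10 called falls with the smallest p, a mean of at least 1 FPKM in a group compared, no value at 0 and, for the time effect, no overlap. It adds every clock gene and up to 3 called members of each other list; some genes that the rule takes are not reported here, though counts include them. Comparisons, members and gene lists were chosen with earlier results of these data known. Alternatives changed the offset, the filter, the scaling, the model, age and the libraries. Libraries sharing at most 2 exact values with every other library of their group were left out together in an alternative chosen after seeing the data. In the sham mice that rule takes ZT0 replicate 2 and ZT12 replicate 6. Depth was estimated from the smallest steps of 68 genes at 0 in at least 30 libraries.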

Additional observations from a re-analysis of the deposited data

Results flagged for a closer look

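Of 153 groups of 4 libraries checked for single values far from the others, 12 were found, where chance gives about 1 in 20. In adrenalectomized RE-RE mice at ZT0, Bhlhe40 was low in replicate 4 (31.6 FPKM, next 38.7), Ddit4 was low in replicate 4 (2.36, next 9.94), Sult1a1 was low in replicate 1 (9.48, next 10.8) and Aox1 was high in replicate 3 (4.57, next 3.7). At ZT12 Gramd4 was high in replicate 7 (3.91, next 2.9), Camta1 and Ston2 in replicate 6 (2.21, next 1.98, and 4.44, next 4.1) and Rps6ka5 in replicate 8 (4.79, next 3.43). In sham RE-RE mice Mylk4 was low in ZT0 replicate 2 (98.1, next 131) and Arntl was above 0 in ZT12 replicate 5 alone (0.327). In WT ADX mice at ZT12 Tacc2 was low in replicate 6 (37.1, next 41.5) and Fst was above 0 in replicate 4 alone (0.286).

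Time effects that differed by the limma test of the difference itself were found against both other conditions. Against RE-RE sham mice these were Rreb1 (0.66), Dyrk2 (1.02), Ypel2 (1.15), Gramd4 (0.72), Arntl (7.09), Mylk4 (-1.21) and Sult1a1 (-0.96). Against WT ADX mice, genes with a more positive value were Vgll2 (1.72), Camta1 (0.6), Plvap (0.85), Npas2 (4.6), Ddit4 (8.35) and Fst (4.53). Those with a more negative value were Tacc2 (-2.12), Ybx2 (-1.49), Rps6ka5 (-1.94), Plin3 (-2.48), Aox1 (-0.81), Hist1h3d (-2.02), Pla2g7 (-1.48), Ston2 (-0.6), Eef2k (-0.61), Ccdc9b (-0.58) and Sox10 (-2.0). The values of Arntl, Npas2, Ddit4 and Fst depend on the offset because some of their libraries are at 0.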

How the results depend on the processing

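The count of 93 genes called for the time effect in adrenalectomized RE-RE mice became 1 with only these 8 libraries in the model. That gene, H2-Ab1, is not among the 93. The count was 10 with only the 16 RE-RE libraries (9 of them among the 93) and 53 with age as a covariate (45 among the 93). It was 24 to 123 when each library was left out in turn. Without the 3 libraries that share hardly any exact value with their group, and so with fewer mice, it was 0 by limma (649 at an unadjusted p under 0.05). The other 5 alternatives gave 80 to 105. The count of 8 genes that differed from RE-RE sham mice became 2 with only the groups compared, 0 of them among the 8. It was 8 to 19 with each library left out. Without the libraries that stand apart it was 25, with 7 of them among the 8. The count of 34 that differed from WT ADX mice became 2 on log2(FPKM + 1) and 19 among genes without a value at 0. With only the groups compared it was 10, with 7 of them among the 34. It was 19 to 89 with each library left out and 11 without those that stand apart. The cause was not tested. No named gene that was called reversed, though these genes were chosen by their test on the same libraries.

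No paired analysis was possible for the time effect because ZT0 and ZT12 mice carry different replicate numbers. Mice of other conditions with the same number are separate animals, and deviations of same-numbered libraries correlated at -0.116 to 0.166. With the replicate number as a block, 0 genes differed from RE-RE sham mice by limma (831 at an unadjusted p under 0.05) and 14 from WT ADX mice.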

Other observations

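Among lists without a call in adrenalectomized RE-RE mice, small differences of like sign were common. Proteasome subunits were higher at ZT12 in 20 of 21 (median 0.07), cytosolic ribosomal proteins in 17 of 20 (0.06) and autophagy and lysosome genes in 15 of 18 (0.11). Mitochondrially encoded genes were lower in all but 1 of 13 (-0.06), as were sterol and lipogenic genes in all but 2 of 13 (-0.11) and interferon and MHC class I genes in all but 3 of 15 (-0.14). An unadjusted p under 0.05 in limma was reached by 5, 5, 8, 0, 3 and 0 genes of these lists in that order, beside 11.8% of all genes. No test over the lists was made.

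The same libraries often carried the extremes of the called genes, a pattern noticed after seeing the values. ZT12 replicates 5 and 8 were the highest pair of their group in 42 of the 71 rises (59.2%) and the lowest pair in 13 of the 22 falls (59.1%), beside 28.7% and 28.9% of all genes with a positive or negative difference. ZT0 replicates 1 and 4 were the lowest pair in 27 rises (38%) and the highest pair in 16 falls (72.7%), beside 12.2% and 16.2% of all genes. Both held together in 22 rises (31%) and 13 falls (59.1%), beside 5.81% and 7.59%. These 4 mice were 11, 8, 12 and 16 weeks old (replicates 1, 4, 5 and 8), and replicates 2, 3, 6 and 7 were 15, 14, 18 and 18 weeks old. Among the 29 genes with a called time effect that the naming rule takes, 26 had a smaller difference, and 3 a larger one, without the libraries that stand apart, and all 29 kept their direction. These genes were chosen by their test with all the libraries, which favours both a smaller difference and a kept direction in any part of them. The counts are therefore a description, and leaving out other sets of libraries together was not tried.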
